A study of Mus musculus with 7 samples.

Results

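Cytosolic and mitochondrial chaperones were followed in the mouse uterus over a day after dihydrotestosterone (DHT), through 33 named genes and the microarray probe sets that name only 1 of them. Of the 33 genes, 30 had such a probe set, 46 probe sets in all, out of the 12488 on the array. Hsp90ab1, Hsf1 and Ahsa1 had none and were not analysed here. Where several probe sets named a gene the brightest was used, and 28 of the 30 genes lay above the filter on low signals, among 6326 genes in all. These 28 lay above the floor used for low signals (145.9) on every array. Hspb1 (47.8 to 96.6) and Hsf2 (10.3 to 74.4) were under that floor on all 7 arrays and have no values below.

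Each of the 7 groups was 1 Affymetrix U74Av2 array of RNA pooled from uteri of C57Bl/6 females aged 10 to 11 weeks, without replicates. All mice, controls included, had been ovariectomized 7 days before death. The DHT groups were killed 1, 3, 6, 12, 18 or 24 h after 0.1 mg of DHT under the skin, and the control group 24 h after the vehicle alone. The protocols name 10 mice without saying how many went into each pool. The series' design text lists 0.5 h where the array titles list 18 h, and for the DHT groups the titles were followed. The control array is titled 0 h, but its source label gives 24 h after vehicle. That label was used, and the match in time at 24 h rests on it. Only the 24 h array is matched in time to the vehicle array, so at 1 to 18 h the effects of DHT, of the injection and of the hour of the day cannot be told apart. In whole uterus, more RNA per cell and more cells of a type cannot be told apart either. Of the marker genes, 8 of 8 for epithelium, 7 of 7 for smooth muscle and 6 of 7 for stroma passed the filter; the stromal gene Vim was under the floor on all arrays.

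Chaperones bind unfolded proteins and help them reach or keep their shape. HSP70 proteins take up clients delivered by J proteins, and HSP110 proteins and Bag3 make them let go; the CCT ring folds actin and tubulin, and HSP60 with HSP10, encoded by Hspd1 and Hspe1, does the like inside mitochondria. Steroid receptors reach their hormone-binding state on HSP90, to which Stip1 hands them from HSP70 and where Fkbp4 or Ppid join the complex. Many of these genes are induced together by the heat shock factor HSF1, and in the uterus Fkbp4 is known to be needed for the response to progesterone.

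The chaperone genes were higher than vehicle mainly at 3, 6 and 12 h. On the brightest probe set of each gene, no member was 1.5-fold lower at any time. A dimmer set of Hspd1 was past that size below vehicle at 6, 12 and 24 h (log2 ratios -0.88, -0.93 and -1.51). At 6 h 13 of the 28 were at least 1.5-fold higher, against 6.88% of all 6326 genes. The count was 1 after 1 h (background 3.18%) and 7 after 3 h (5.09%). It was 10 after 12 h (8.55%), 4 after 18 h (5.77%) and 3 after 24 h (5.07%). For lower values the counts were 0 at all 6 times, against 2.69%, 4.82%, 6.23%, 7.02%, 5.42% and 4.92% of all genes. Over the whole course 15 members were at least 1.5-fold higher at 1 or more times (17.3% of all genes), 11 at 2 or more (8.98%) and 8 at 3 or more (4.84%), and 0 were lower at any (16.1%). Among the 5114 genes that were above the floor on all arrays, as the members are, the share higher was 2.56%, 4.61%, 7.1%, 8.74%, 5.63% and 4.89% in order of time. At 2-fold, 4 members were higher at 6 h (Hspa1a, Hspa1b, Hsph1 and Hsp90aa1, background 1.28%), 1 at 3 h (Hsph1, 1.23%) and 3 at 12 h (Hsph1, Cct8 and Stip1, 1.83%). At 1, 18 and 24 h it was 0, against 0.474%, 1.31% and 0.933%. At 1 h the members' share, 3.57%, was close to the background. Measured against the mean of the other 6 arrays in place of vehicle, 6 members were higher at 6 h and 2 at 12 h, and 0 at the other times, against 2.02%, 3.4%, 2.12%, 2.92%, 2.18% and 1.5% of all genes from 1 to 24 h. On that reference Hsph1 was lower at 18 and at 24 h, and 0 members were lower before then (1.88%, 3.07%, 2.17%, 2.07%, 2.09% and 1.8% of all genes).

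**Figure D1:**
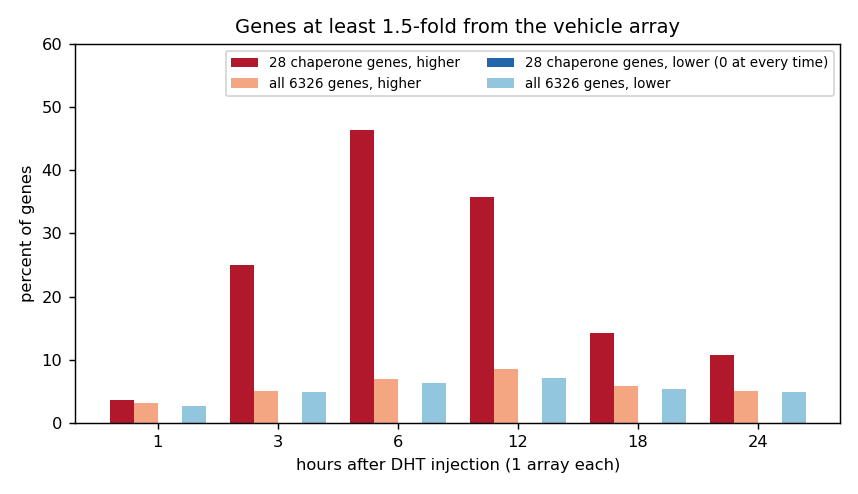
Percent of the 28 chaperone genes and of all 6326 genes that were at least 1.5-fold higher or lower than the vehicle array, by hours after DHT, with 1 array at each time. The members' share of higher genes is largest at 6 h (46.4%) and 12 h (35.7%), while all genes stay between 3.18% and 8.55%.

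An excess at 6 h over 1, 18 and 24 h was also seen between DHT arrays alone, without the vehicle array. All of these comparisons rest on the same single 6 h array. Against 1 h, 13 of 28 members were at least 1.5-fold higher at 6 h and 0 lower (5.71% of all genes in either direction), and 24 were above it by any amount (45.5%). Against 18 h, 9 were at least 1.5-fold higher at 6 h (5.28%) and 1, Cct2, was lower (5.28%). Against the 24 h array 7 were higher (4.65%) and 0 lower (4.66%). From 6 to 12 h, 0 were higher (3.4%) and 3 lower (2.45%), namely Hspa1a, Hspa1b and Hsph1. Between 18 and 24 h no member differed by 1.5-fold in either direction (2.83% of all genes were higher and 3.13% lower). Counting any amount, 20, 23, 26, 26, 23 and 25 of the 28 members were above vehicle from 1 to 24 h, where 48.1%, 45.7%, 46.3%, 48.2%, 45.8% and 48.1% of all genes were. The 6 h array was the highest of the 7 for 15 members (14.1% of all genes) and the 12 h array for 5 (15.5%), together 20 (29.7%). The 3 h and 24 h arrays were highest for 3 each (15.8% and 12.6%), and those of 1 and 18 h for 1 each (14.2% and 11.5%). The vehicle array was the lowest for 15 (13.5%). No member was highest on vehicle, against 16.3% of all genes.

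**Figure D2:**
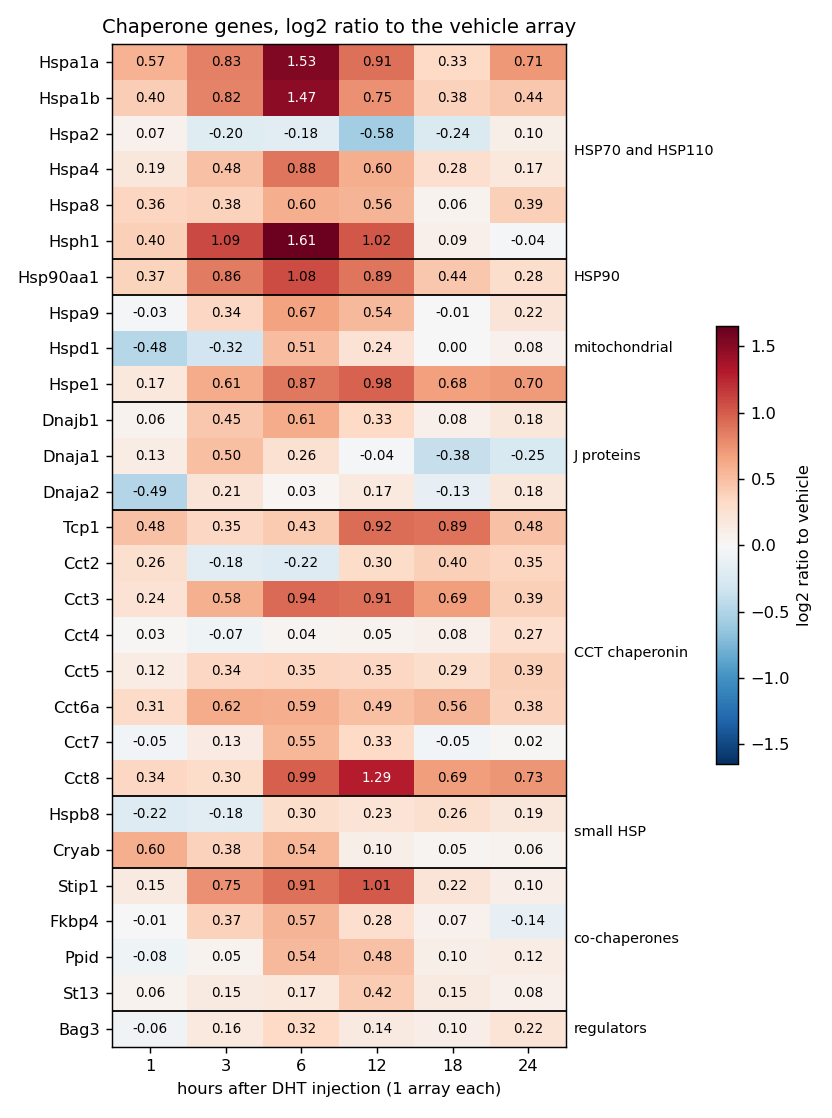
Log2 ratio to the vehicle array for the 28 chaperone genes (lines between groups) at the 6 times after DHT, 1 array each; red is higher and blue lower than vehicle. The 6 h column holds the highest values of the HSP70 and HSP110 group (up to 1.61 for Hsph1), and Cct8 and Tcp1 of the CCT group are highest at 12 h.

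The groups had unlike medians, given here as a description without a test. The 6 HSP70 and HSP110 genes had median log2 ratios of 0.38, 0.65, 1.18, 0.67, 0.18 and 0.28 from 1 to 24 h, a peak at 6 h. For the 4 co-chaperones the medians were 0.02, 0.26, 0.55, 0.45, 0.13 and 0.09, so their median peaked at the same time and was near vehicle by 24 h. Of these genes Stip1 and St13 were themselves highest at 12 h (1.01 and 0.42, against 0.91 and 0.17 at 6 h). The 8 CCT subunits had medians of 0.25, 0.32, 0.49, 0.42, 0.48 and 0.38, which stayed near the same level from 6 to 24 h. Single subunits did not all do so: from 6 to 18 h Cct7 went from 0.55 to -0.05 and Cct2 from -0.22 to 0.40. With the mean over probe sets the CCT median at 18 h was 0.35. The median of all genes was 0.00 at every time, and that of all 28 members was 0.14, 0.36, 0.56, 0.45, 0.13 and 0.20.

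**Figure D3:**
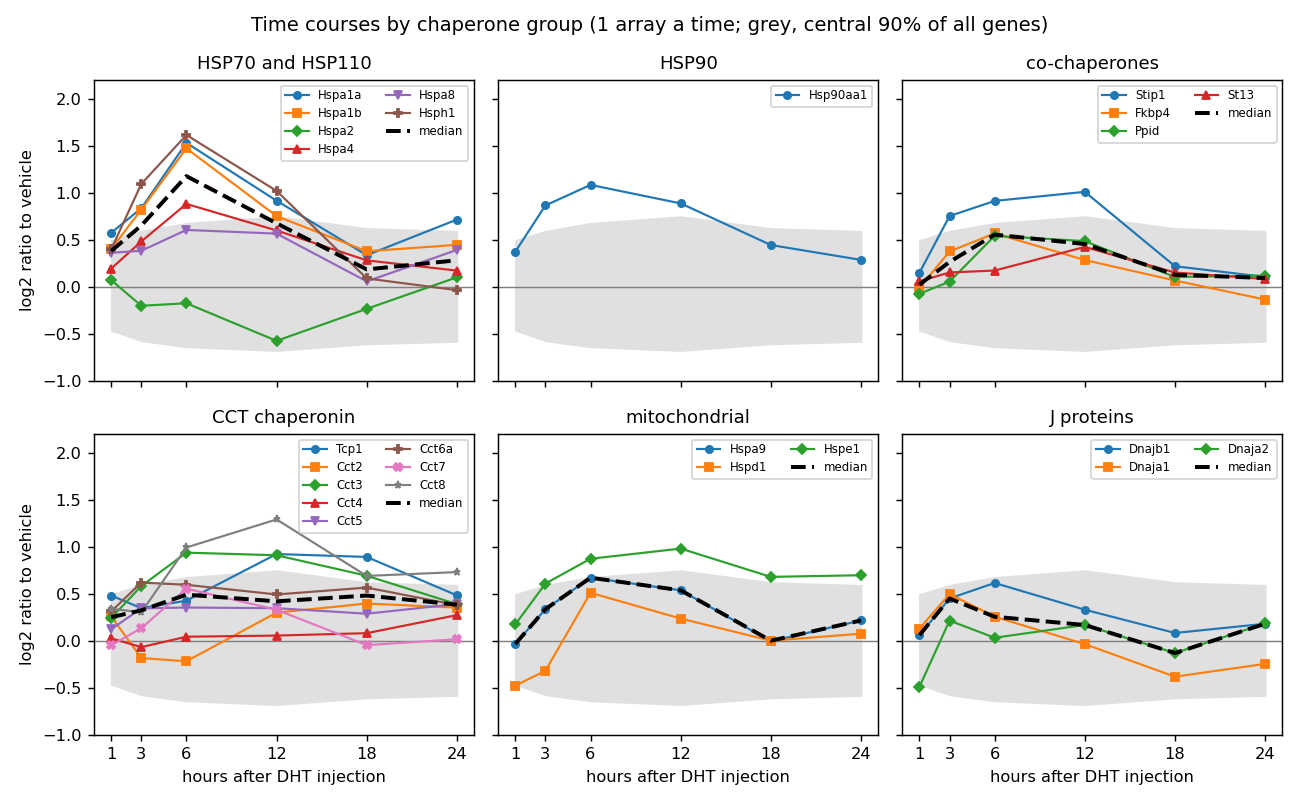
Log2 ratio to vehicle against hours after DHT for the genes of 6 chaperone groups, with the group's median as a dashed line and the central 90% of all genes in grey; each point is 1 array. The HSP70 and HSP110 median peaks at 6 h, at 1.18, whereas the CCT median lies between 0.38 and 0.49 from 6 to 24 h. Single genes depart from their group's median.

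Promoter sequences were searched for the heat shock element, the site of HSF1, made of alternating GAA and TTC units. RefSeq promoters (GRCm38.p6) were found for 24 of the 33 members. The other 9 (Hsp90aa1, Hsp90ab1, Hspa8, Hspa9, Cryab, Cct4, Ppid, St13 and Hsf1) had none and were not searched. The 250 bases before the start were searched for 2 units, GAANNTTC or TTCNNGAA. They were also searched for 3 units, GAANNTTCNNGAA or TTCNNGAANNTTC, which contain the first. Only exact matches were counted. Each 2-unit motif reads the same on both strands, and the 3-unit motifs are each other's reverse. The 3-unit motif was found at 2 of 24 members, Hspd1 and Hspe1, and at 0.514% of the 27025 genes in the table (0.466% of its 32851 windows). The 2-unit motif was found at 10 of 24 (Cct2, Cct5, Dnaja1, Fkbp4, Hspa1a, Hspa1b, Hspb1, Hspd1, Hspe1 and Hsph1) and at 14.5% of all genes (12.8% of windows). Shown first is the element shared by the Hspe1 and Hspd1 pair, which holds the 3-unit motif. The other windows hold 2-unit matches only. They are those of Hspa1a and Hsph1, which had the highest ratios of all members at 6 h, and of Fkbp4 and Dnaja1 for comparison. Each window is 60 bases on the gene's own strand with the units in capitals:
Hspe1 (chr1:55088037-55088096, plus strand): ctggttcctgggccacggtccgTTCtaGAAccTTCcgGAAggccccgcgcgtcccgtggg
Hspa1a (chr17:34972228-34972287, minus strand): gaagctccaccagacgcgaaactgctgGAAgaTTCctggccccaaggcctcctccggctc
Hsph1 (chr5:149636337-149636396, minus strand): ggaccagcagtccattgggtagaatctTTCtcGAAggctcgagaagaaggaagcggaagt
Fkbp4 (chr6:128438775-128438834, minus strand): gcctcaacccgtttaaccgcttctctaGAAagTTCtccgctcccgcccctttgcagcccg
Dnaja1 (chr4:40722317-40722376, plus strand): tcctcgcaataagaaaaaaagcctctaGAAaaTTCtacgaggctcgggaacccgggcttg

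The Hspe1 element lies 89 to 72 bases before the Hspe1 start, and the same bases lie 144 to 127 before the start of Hspd1, which is read the other way; their 60-base windows overlap by 58. The signals of that pair lay on opposite sides of vehicle at 1 and 3 h. The windows of Hspa1a and Hspa1b are the same in 60 of 60 bases. Members without a match were also high at 6 h, such as Stip1 and Cct8. Some members with a 2-unit match were not, such as Cct2 (log2 ratio -0.22) and Cct5 (0.35). A match is a run of letters and not a measured binding site, and the search was chosen with the values known.

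Hspa1a and Hspa1b, the stress-inducible HSP70 genes, were among the 3 members with the highest ratios at 6 h, with Hsph1. The Hspa1a signal was 604 on vehicle and 898.5, 1076.2, 1742.6, 1138, 761.5 and 990.3 from 1 to 24 h. That of Hspa1b was 925.9 on vehicle and then 1222.2, 1633.7, 2566.1, 1557.1, 1201.9 and 1260.1. Both were lowest on vehicle and highest at 6 h, where they were 2.89-fold and 2.77-fold above it. The 2 genes are near-identical copies, so their probe sets may each read both transcripts and are not separate evidence. At 24 h, the time matched to vehicle, the log2 ratios were 0.71 and 0.44.

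Hsph1 encodes an HSP110 protein, a nucleotide exchange factor that releases clients from HSP70, and had the widest range of all 28 members. Its signal was 862.4 on vehicle and 1136.9, 1838.4, 2636.9, 1747.1, 916.1 and 840.4 from 1 to 24 h. It was at least 2-fold above vehicle at 3, 6 and 12 h and within 0.09 of it on the log2 scale at 18 and 24 h. From 12 to 18 h it was among 3 members, with Cct8 and Stip1, that were at least 1.5-fold lower (3.27% of all genes).

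Hspa4, another gene of the HSP110 family, followed the same course at a smaller size. Its signal went from 1791.4 on vehicle through 2047.7 and 2499.4 to 3296.2 at 6 h and was then 2710.3, 2174.4 and 2016.3. Hspa8, the HSP70 that cells make all the time, read 3675.6 on vehicle and 4717.9, 4789, 5582.4, 5433.3, 3821.3 and 4817.7 after DHT. Hspa8 was above vehicle on all 6 arrays, but passed 1.5-fold only at 6 h (log2 ratio 0.60). Hspa2, an HSP70 known best from the testis, was the exception in this group: it lay between 151 and 241.2 and was lowest at 12 h, at a log2 ratio of -0.58.

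Hsp90aa1, the inducible form of cytosolic HSP90, was above vehicle at all times and more than 1.5-fold at 3, 6 and 12 h. Its signal was 3358.6 on vehicle, then 4348.2, 6111.4, 7108.5, 6203.9, 4564.8 and 4090.9. The highest array, 6 h, was 2.12-fold above vehicle, and by 24 h the log2 ratio was 0.28.

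Among the co-chaperones that pass steroid receptors to HSP90, Stip1 differed most between arrays. Stip1, which holds HSP70 and HSP90 together, read 461.5 on vehicle and 511.4, 776.5, 868.1, 928.2, 536.5 and 495.8 after DHT. The 3 arrays from 3 to 12 h stood apart from the other 4. Fkbp4, the immunophilin FKBP52, ranged from 4095.2 at 24 h to 6667.6 at 6 h, and its 6 h log2 ratio of 0.57 was the nearest below the 1.5-fold threshold (0.58) at that time, while Cct6a at 0.59 was the nearest above it. Ppid, the cyclophilin of these complexes, was 0.54 at 6 h and 0.48 at 12 h, and within 0.12 of vehicle at the other times. St13, which steadies HSP70 on its client, ranged from 829.9 on vehicle to 1112 at 12 h.

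Fkbp5, the immunophilin FKBP51 that competes with Fkbp4 on receptor complexes and is a known target of steroid hormones, was not a member but had the highest ratios of the co-chaperones listed from 3 h on. Its signal was 150.5 on vehicle, just over the floor, and 172.9, 329.8, 818.3, 1036.9, 830.2 and 364.4 from 1 to 24 h. Unlike Fkbp4, which was back at vehicle at 18 h (log2 ratio 0.07), Fkbp5 was still at 2.46 then and at 1.28 at 24 h. In limma the late difference of Fkbp5, 2.17 ± 0.95 SE, did not pass (adjusted p = 0.462). Of the receptors that are HSP90 clients, Esr1 lay within 0.24 of vehicle throughout, Nr3c1 was at or near the floor, and Pgr went from 0.59 at 3 h to -0.67 at 24 h.

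The 3 mitochondrial chaperones did not move as a unit. Hspe1, the HSP10 lid, read 1296.7 on vehicle and 1462.8, 1976.4, 2372.8, 2557, 2075.9 and 2101.2 from 1 to 24 h. Hspe1 was thus the member with most times past 1.5-fold, 5 of 6, and at 24 h it was still 1.62-fold above vehicle. Hspd1, the HSP60 barrel that Hspe1 closes, read 4604.3 on vehicle and 3309, 3691.4, 6555.6, 5421.1, 4605.1 and 4850.9. It was lowest at 1 h and highest at 6 h, so at 3 h the 2 genes lay on opposite sides of vehicle (0.61 and -0.32). Hspa9, the mitochondrial HSP70 that pulls proteins in, read 1482.2 on vehicle and 1448.2, 1870, 2357.7, 2149.5, 1476.2 and 1721.1, and passed 1.5-fold at 6 h alone.

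J proteins deliver clients to HSP70, and the 3 members had 3 different courses. Dnajb1, which HSF1 is known to induce, read 522.8 on vehicle and 544.8, 713.9, 800.1, 657.1, 553.5 and 592.5, with the shape of the HSP70 genes at a smaller size. Dnaja1 read 3547.1 on vehicle and 3878, 5003.9, 4233.4, 3460, 2721.2 and 2991.8. It was above vehicle on the 3 arrays of 1 to 6 h, highest at 3 h, and below it on the 3 of 12 to 24 h. Dnaja2 ranged from 424.8 at 1 h to 691.7 at 3 h.

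**Figure D4:**
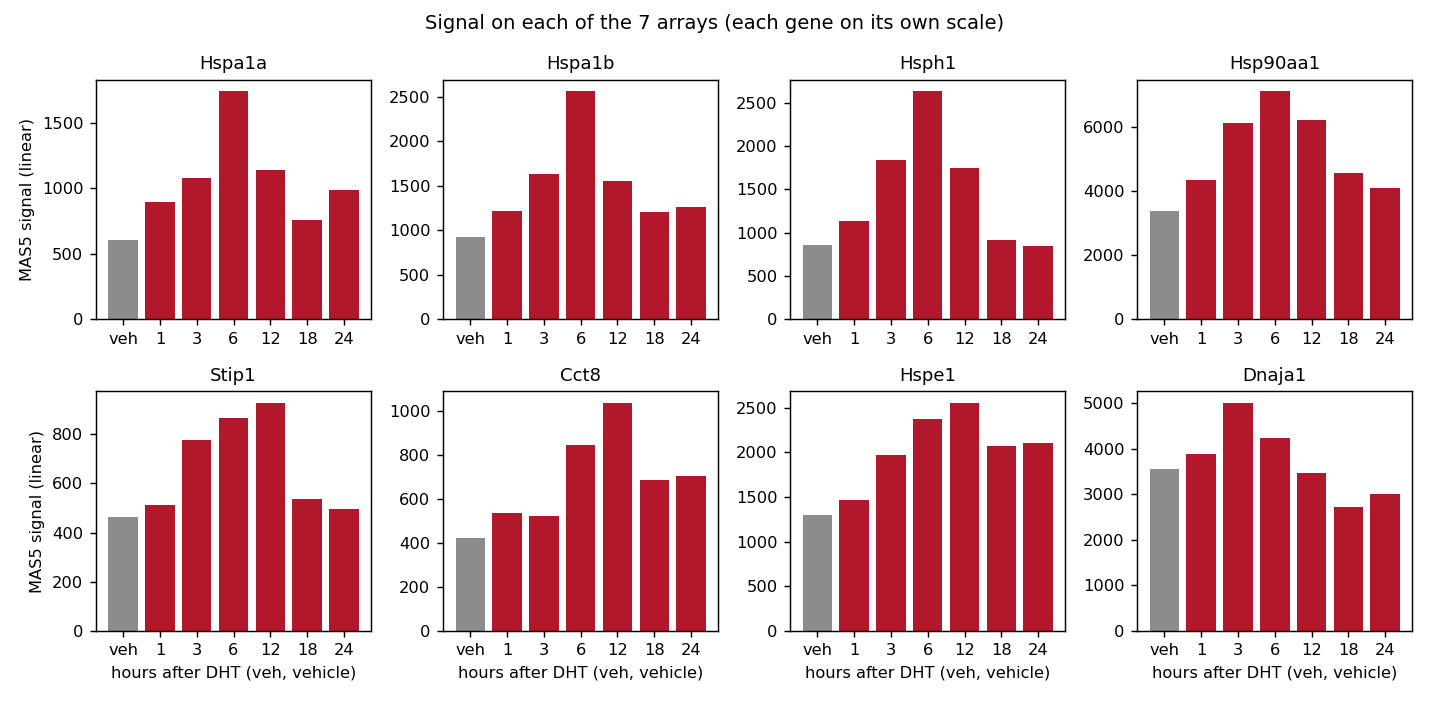
MAS5 signal on a linear scale on each of the 7 arrays for 8 chaperone genes, with vehicle in grey and hours after DHT in red, 1 array a bar; axes differ between genes, so bars compare arrays and not genes. Hspa1a, Hspa1b, Hsph1 and Hsp90aa1 are highest at 6 h, Stip1, Cct8 and Hspe1 at 12 h, and Dnaja1 at 3 h (5003.9).

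The CCT chaperonin is a ring of 8 different subunits that work as 1 complex, yet their genes gave unequal values. Cct8 read 424.4 on vehicle and 537.1, 523.3, 843.8, 1037.4, 684.2 and 703.9 from 1 to 24 h, and was 2.44-fold above vehicle at 12 h. Tcp1 was likewise highest at 12 h, with 292.4 on vehicle and 407.8, 371.8, 392.7, 554, 542.2 and 408.4. Cct3 read 1367.2 on vehicle and 1617.3, 2045.1, 2616.6, 2567.1, 2206.8 and 1790.2. These 3 subunits were past 1.5-fold at 12 and at 18 h, except that Cct3 at 18 h is not past it in the mean over its 3 probe sets (log2 ratio 0.30 in place of 0.69).

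Cct6a was past 1.5-fold at 3 and 6 h, with 622.9 on vehicle and 773.3, 956.3, 940.6, 876, 921.5 and 809.6. Cct5 was above vehicle on all 6 arrays but never past 1.5-fold, between 3391.4 and 4446.1, and Cct4 moved least of the 28 members, between 2152.8 and 2725.5. Cct7 was 0.55 at 6 h and within 0.13 of vehicle at 1, 3, 18 and 24 h. Cct2 went the other way from most members at 6 h, where it was lowest at 340.1, and was highest at 18 h at 520.3. Above vehicle at all 6 times were 5 of the 8 subunits (Tcp1, Cct3, Cct5, Cct6a and Cct8), and over all members 15 of 28, against 13.5% of all genes.

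Small heat shock proteins hold unfolding proteins without using ATP and are abundant in muscle. Cryab read 175.2 on vehicle and 266.1, 228.5, 255.3, 187.6, 181.5 and 182.9. It was the only member past 1.5-fold at 1 h (log2 ratio 0.60, with Hspa1a at 0.57 just under the threshold), and it was within 0.10 of vehicle from 12 h on. Its signals were close to the floor and its probe set is of a type (suffix f) that the maker marks as shared by a sequence family; its other probe set was under the floor on all arrays. Hspb8 lay between 1223.1 at 1 h and 1744.1 at 6 h. Bag3, which links HSP70 to Hspb8 and to autophagy, read 843.6 on vehicle and 808.7, 945.3, 1055.9, 932, 906.6 and 984.4, a range of 1.31-fold between lowest and highest array.

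Where a gene had more than 1 probe set above the filter, which held for 7 members, the probe sets did not always give the same course. For Cct3 the second-brightest set gave 0.93 at 6 h and 0.95 at 12 h beside 0.94 and 0.91, while its dimmest gave 0.36 and 0.35. At 18 h the 3 Cct3 sets gave 0.69, 0.45 and -0.25. The 4 sets of Hspa4 were all above vehicle at 3, 6 and 12 h, with peaks at 3, 6 or 12 h, and their mean at 6 h was 0.51, under the 1.5-fold threshold, where the brightest set gave 0.88. For Hspd1 the dimmer set (494 on vehicle) went from -0.19 at 1 h to -0.88 at 6 h and -1.51 at 24 h, against 0.51 and 0.08 on the brighter set at 6 and 24 h. The dimmer Bag3 set was higher throughout, between 0.34 and 0.77, than the brighter set, between -0.06 and 0.32. For Fkbp4 the dimmer set gave 0.22 at 6 h and was highest at 12 h (0.37), against 0.57 at 6 h on the brighter. The dimmer St13 set was below vehicle at 1 and 18 h (-0.05 and -0.20), unlike the brighter. At 1 h a dimmer set of Hspa4 (-0.08) and of Cct5 (-0.02) was also below vehicle. The brightest sets of Fkbp4 and Cct6a have the suffix f, and the other Cct6a set was under the floor on all arrays. The values of Hspd1, Bag3, Fkbp4 and St13, of Cct3 at 18 h and of Hspa4 at 6 h thus turn on the probe set chosen.

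**Figure D5:**
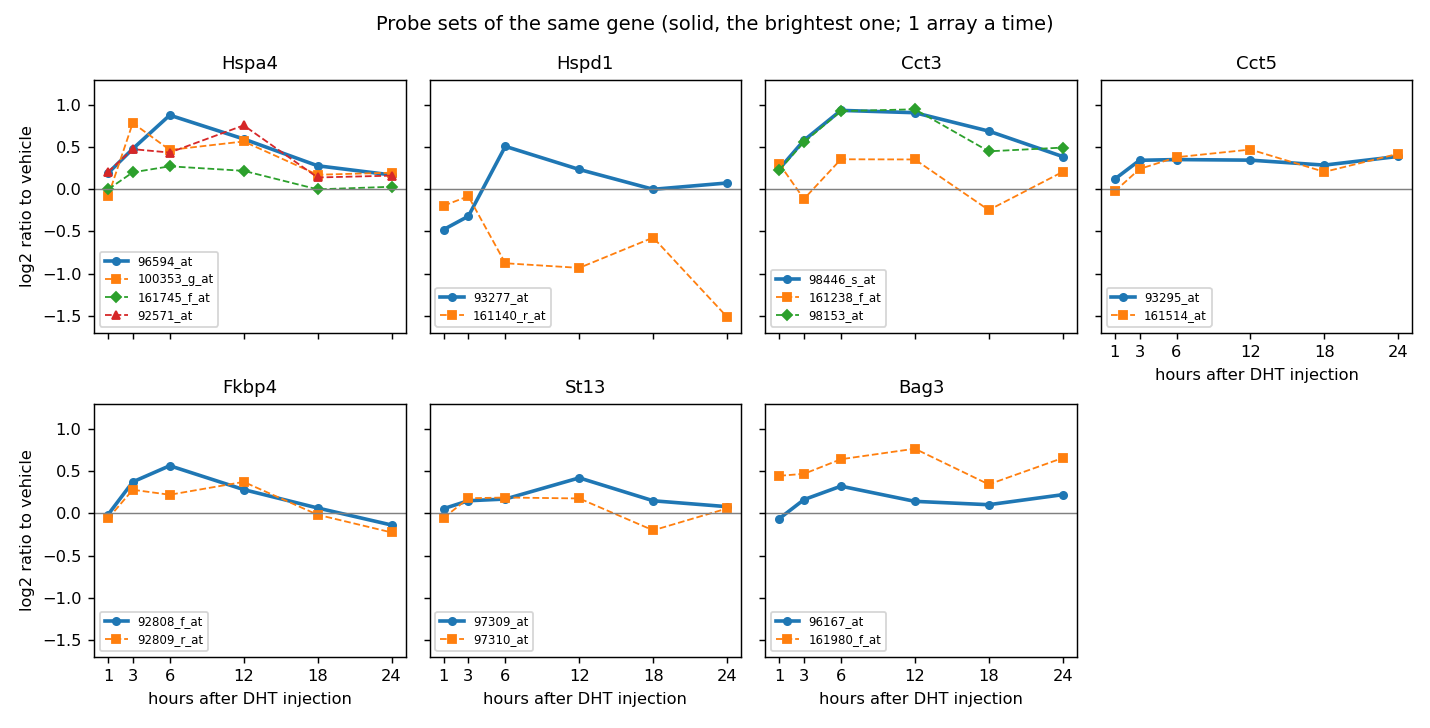
Log2 ratio to vehicle against hours after DHT for every probe set above the filter of the 7 chaperone genes that have more than 1, the brightest as a solid line; each point is 1 array. The sets of Cct5 run together, while those of Hspd1 are at 0.51 and -0.88 at 6 h.

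Joining the 3 arrays of 1 to 6 h as early and the 3 of 12 to 24 h as late allowed a test, in which the spread between times stands in for that between replicates. In limma with Benjamini-Hochberg adjustment over 8421 probe sets, 0 of 28 members passed 0.05 for early against vehicle, late against vehicle or late against early. Over all probe sets 0.273% passed early and 0.309% late, all of them lower than vehicle, and 0% for late against early. Members were above vehicle in 23 of 28 cases early and 26 of 28 late, where 51% and 51.8% of all probe sets were. Their median difference was 0.35 early and 0.29 late, against 0.00 over all probe sets.

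At an unadjusted p under 0.05, 2 members were higher early (2.49% of all probe sets were) and 0 lower (3.84%), and 4 were higher late (5.53%) and 0 lower (6.19%). Late against early, 0 were higher (5.76%) and 2 lower (4.49%), and 13 of 28 differences were above 0 (48.3%). Cryab had the lowest adjusted p both early against vehicle (difference 0.51 ± 0.11 SE, adjusted p = 0.355) and late against early (-0.44 ± 0.08 SE, adjusted p = 0.212). Tcp1 had it late against vehicle (0.76 ± 0.22 SE, adjusted p = 0.311), followed by Cct6a, Cct5 and Hspe1. Hspa1a had a larger early difference with a larger error, 0.98 ± 0.40 SE (adjusted p = 0.796). Dnaja1 was lower late than early (-0.51 ± 0.13 SE, adjusted p = 0.327).

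The order of the phases was complete for 5 members. On all 3 late arrays Tcp1, Cct2 and Cct4 were higher than on any early array (8.18% of all probe sets were), and Dnaja1 and Cryab were lower (6.61%). Both counts are near the share over all probe sets, and for Tcp1 the gap was from 407.8 to 408.4 in signal. For the other 23 members the phases overlapped.

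Other genes of the pathway were counted in lists. Of 26 further co-chaperones above the filter, 5 were at least 1.5-fold higher at 6 h and 0 lower (6.88% and 6.23% of all genes), with a median log2 ratio of 0.21. The 5 were Fkbp5, Dnajc3 of the ER (1.31), the HSP110 gene Hspa4l (0.63), Hspa14 (0.59) and the collagen chaperone Serpinh1 (0.70). Serpinh1 was still at 0.74 at 24 h. Hspa14 is a bound, since vehicle was under the floor. Grpel1, the exchange factor for mitochondrial HSP70, was past 1.5-fold at 1, 3 and 18 h, up to 0.97. Of 9 genes for mitochondrial proteases and import, 3 were higher at 6 h (Tomm40 at 1.24, Timm23 at 0.83 and Timm13 at 0.67) and 0 lower, against the same shares of all genes. Tomm40 is likewise a bound.

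Among 9 tubulin genes, clients of CCT, 5 were at least 1.5-fold higher at 12 h (8.55% of all genes) and 4 at 18 h (5.77%), with Tubb3 at 1.06, Tubb2a at 0.77 and Tubb6 at 0.68 at 18 h. All 5 tubulins counted at 12 h rest on probe sets with the suffix f, so they may read shared sequence and are not separate evidence. Of 8 prefoldin and partner genes, which bring clients to CCT or take them from it, 1 was higher at 12 h and 0 lower, and 1 higher and 1 lower (Pdcl3 at -0.63) at 6 h. The higher gene was Tbcb, a tubulin folding cofactor under the floor on vehicle, at 1.00 or more at 12 h. In limma 0 genes of these 4 lists passed in any contrast. At an unadjusted p under 0.05, late against vehicle, 3 of 26 co-chaperones were higher and 2 lower, 1 of 9 mitochondrial genes was higher and 1 lower, and 3 of 9 tubulin genes were higher and 0 lower. Of the 8 prefoldin and partner genes 0 passed that, where 5.53% of all probe sets were higher and 6.19% lower.

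Other measures were read on the same arrays, and their part in the chaperone values was not tested. Cirbp, an RNA binding protein whose message is known to go up in cooled cells, read 1820.3 on vehicle, 1097.6 at 6 h and 1109.6 at 12 h, its lowest arrays, and 1399 to 1550 at the other times after DHT. The summed signal of the 7 smooth muscle markers was 27016 to 29715.6 on vehicle and up to 6 h, and 36134.4, 43235.5 and 49563.5 at 12, 18 and 24 h. The 6 stromal markers summed to 39986.7 on vehicle and to 61737.3 at 24 h, and the 8 epithelial ones stayed between 9235.1 and 11540.2. In the stromal sum Col1a1 (7164.2 to 17649.5) and Col3a1 (4088.7 to 10513.2) rose most. Hoxa10 and Hoxa11 were also higher at 24 h (log2 ratios 0.49 and 0.66). Pdgfra was not above vehicle at any time (-0.14 at 24 h), and Dcn was at -0.30 and -0.46 at 6 and 12 h and 0.25 at 24 h. Of the 9 skeletal muscle markers 4 were under the floor on all arrays, and the 5 others summed to between 2482.6 at 6 h and 3471.5 at 18 h, with Pvalb the largest part. For the 3 leukocyte markers above the filter the sums ran from 1336.6 to 2184.6, with Ptprc and Cd3e under the floor. For the 3 of fat the sums ran from 2197.1 to 3595.7, but Adipoq (log2 ratio -0.97) and Lep (1.07) went apart at 24 h. For the 4 of endothelium the sums ran from 1421.4 to 1759.2. The ratio of 3 prime to 5 prime actin signal, a measure of RNA quality, was lowest at 6 h (1.03) and between 1.08 and 1.19 on the other arrays. The same ratio for Gapdh was 0.83 at 6 h and between 0.83 and 0.89 on the other arrays.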

How the data were processed

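RNA of pooled uteri was read on 7 arrays. Per the submitters' processing notes the authors used MAS5 (version not given in the sources used here), and the deposited signal intensity is linear. The trimmed mean was between 499.6 and 499.9 on every array, so scaling was kept. Of 12422 probe sets, controls left out, 10833 named 1 gene, 396 several and 1193 none. Values below the 40th percentile (the floor) were set to it before log2, and probe sets with a mean above it were kept. Ratios to vehicle are described beside the share of all genes, with no test, as each time has 1 array, and the few arrays limit precision. limma 3.58.1 (R 4.3.3, trend, 4 residual degrees of freedom) tested the phases, two-sided; vehicle borrows its spread from the DHT arrays. The fit was tested on simulated data for late against early only, with planted shifts far larger than the members' differences. That run does not show the power of the tests reported. Members past 1.5-fold at 1 or more times, or widest in their group, have all 7 values. Other genes come from lists and had 1.5-fold at 2 or more times, or are receptors or Fkbp5. Pdcl3, Pvalb, Pdgfra, Dcn, Vim, Ptprc and Cd3e were picked after their values were seen. Members and lists were chosen with earlier results of these data known. Alternatives changed the floor, scaling, filter, probe set, threshold, reference and arrays.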

Additional observations from a re-analysis of the deposited data

Results flagged for a closer look

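Dnaja1, a J protein gene, was above vehicle on all 3 early arrays and below it on all 3 late arrays, a pattern shown by 62 of 6326 genes (0.980%) and by 1 of the 28 members. Its difference of late minus early was -0.51 on the log2 scale, which did not pass in limma (adjusted p = 0.327).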

How the results depend on the processing

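No paired analysis was possible because each group has 1 array. With a 2-fold threshold the counts of higher members from 1 to 24 h were 0, 1, 4, 3, 0 and 0. Against the mean of the other 6 arrays in place of vehicle they were 0, 0, 6, 2, 0 and 0, and 1 member was lower at 18 h and 1 at 24 h. The floor at the 60th percentile gave 0 higher at 1 h, the floor at the 20th gave 5 at 24 h, and the mean over probe sets gave 1 lower at 24 h. With the floor at the 60th percentile the HSP70 and HSP110 median at 6 h was 1.47, since Hspa2 then failed the filter, and the small HSP median was -0.22 at 1 h and -0.18 at 3 h. It was 0.00 at 1 h with no filter and 0.38 at 3 h with the floor at the 20th percentile. The other 67 counts and 205 medians moved by less than 1.5-fold or by less than the residual SD of 0.19. Of the gene ratios past 1.5-fold, 5 moved by more: the mean over probe sets gave 0.51 for Hspa4 at 6 h and 0.74 and 0.30 for Cct3 at 6 and 18 h, and the floor at the 60th percentile gave 0.63 and 0.59 for Tcp1 at 12 and 18 h. In limma 0 members passed with other floors, quantile normalization, no filter or no variance trend, or on leaving out each DHT array in turn (between 0 and 0). Vehicle could be left out only for late against early, and the mean over probe sets was not run in limma. The single vehicle array and the lack of replicates limit every value.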
